A study of Homo sapiens with 6 samples.

Results

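The cytosolic ribosomal protein mRNAs were examined in 22Rv1-ABHD5 cells grown without and with doxycycline (Dox). They were taken by symbol from the deposited table of gene counts. Every row named RPL or RPS followed by a digit was kept, together with RPLP0, RPLP1, RPLP2 and RPSA. The RPS6K kinases (12 symbols), RPS27L and 28 symbols that end in P and digits, as ribosomal pseudogenes do, were dropped. This left 90 of the 27470 genes in the table, 34 named for the small and 56 for the large ribosomal subunit. One dropped symbol, RPS19BP1, does not name a pseudogene. Among the 90 are 3 read-through rows that join a ribosomal gene to its neighbour (RPL17-C18orf32, RPL36A-HNRNPH2 and RPS10-NUDT3) and 1 antisense row (RPL34-AS1).

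22Rv1 is a human castration-resistant prostate cancer line. All 6 libraries came from 22Rv1 cells that carry ABHD5, a coactivator of the triglyceride lipase ATGL, behind the Dox-inducible promoter of the pInducer20 lentiviral vector and that were selected with G418 as an infected population. In 3 libraries, labelled Control, the cells had no Dox, and in the other 3, labelled OE, they had Dox, with 48 h of culture given in the series description. Control therefore means the same engineered cells without inducer, and since parent cells given Dox were not analysed here, Dox itself and ABHD5 cannot be told apart. The labels do not say whether replicates were separate cultures, so every p-value measures the spread between these libraries, which may be technical.

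Each cytosolic ribosome is built from ribosomal RNA and one copy of most of these proteins, so their supply is tied to the making of both subunits. Their mRNAs belong to the TOP class. Such an mRNA begins with a C followed by an unbroken run of C and T (U in the RNA), the 5ʹ terminal oligopyrimidine motif. TOP mRNAs are known to be controlled mainly at translation: when the kinase complex mTORC1 is inactive, LARP1 holds their cap and 4E-BP proteins block the cap-binding factor eIF4E. mTORC1 also acts through S6 kinases on RPS6, the protein of the small subunit whose phosphorylation is widely used as a readout of the pathway. Since the study asked whether ABHD5 represses mTORC1 signalling, the comparison without and with Dox shows whether the levels of these mRNAs moved. Counts of mRNA do not measure how well an mRNA is translated.

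The start of the transcript is the feature that these mRNAs are known to share, and it was read from RefSeq start windows on GRCh38.p14 for the 71 members that have one. Of these, 49 (69.0%) began with C and then held only C or T through at least the first 5 bases. The same was true of 4.07% of all 35116 RefSeq start entries, and of 55.7% of the 88 entries of members when every listed start is counted. With the run also allowed to begin elsewhere within 5 bases of the start, if it directly followed an A or G, the shares were 74.6% of members and 15.5% of all entries. Windows of 30 bases are shown for members described below, 15 bases before the start and 15 from it, 5ʹ to 3ʹ on the strand of the gene. Capitals mark the run of C and T from the first transcribed base. The first 10 hold such a run, and the last 3 are shown because they do not.
RPS6 on the minus strand, chr9:19380222-19380251: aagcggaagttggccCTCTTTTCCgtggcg
RPSA on the plus strand, chr3:39406705-39406734: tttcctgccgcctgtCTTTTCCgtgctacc
RPS27A on the plus strand, chr2:55232673-55232702: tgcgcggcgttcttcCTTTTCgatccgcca
RPL10 on the plus strand, chrX:154398362-154398391: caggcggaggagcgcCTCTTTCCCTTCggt
RPL22 on the minus strand, chr1:6199581-6199610: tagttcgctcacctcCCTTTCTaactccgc
RPL22L1 on the minus strand, chr3:170870181-170870210: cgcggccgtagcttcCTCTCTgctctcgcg
RPL27A on the plus strand, chr11:8682777-8682806: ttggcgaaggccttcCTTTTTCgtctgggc
RPL39 on the minus strand, chrX:119791616-119791645: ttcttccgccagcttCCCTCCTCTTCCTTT
RPLP1 on the plus strand, chr15:69452803-69452832: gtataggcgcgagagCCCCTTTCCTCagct
RPLP2 on the plus strand, chr11:809952-809981: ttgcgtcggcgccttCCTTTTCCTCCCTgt
RPL4 on the minus strand, chr15:66504841-66504870: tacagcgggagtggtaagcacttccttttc
RPL36AL on the minus strand, chr14:49620612-49620641: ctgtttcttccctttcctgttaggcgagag
RPS4X on the minus strand, chrX:72277234-72277263: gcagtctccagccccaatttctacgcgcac

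In RPL4 such a run begins within 5 bases of the annotated start, but not at the base that RefSeq gives. In RPL36AL and RPS4X no run of at least 5 bases that opens with C and directly follows an A or G begins within that distance. The annotated start of RPL36AL nevertheless lies inside a longer stretch of C and T, which begins farther upstream. The annotated start of 68 of the 71 windows was within 2 bases of the start in GENCODE 44. A match in letters is a description of these windows and does not show how an mRNA is translated.

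RNA was sequenced from the 3ʹ end with a QuantSeq kit, which primes at the poly(A) tail and gives about one read per molecule whatever its length. The labels name the FWD version of the kit and the study's methods the REV version, and whether reads were counted by strand is not stated. The libraries held 3394672 to 7271771 reads on genes, and the share of listed reads that fell outside genes was 32.5% to 34.6% in the Control and 35.6% to 39.5% in the OE libraries. ABHD5 was higher with Dox (log2 fold change 0.91, standard error (SE) 0.15, adjusted p = 1.98e-04; edgeR's quasi-likelihood test, adjusted by Benjamini-Hochberg, as everywhere below), with 58.0 to 63.5 reads scaled to a common library total (CPM) without and 91.7 to 131 CPM with Dox. All 9 luminal prostate markers were detected (898 to 1517 CPM in sum), KRT5 and KRT14 of basal cells and CD3E of T cells were at 0 in every library, and the fibroblast and leukocyte lists summed to at most 9.98 and 1.86 CPM. The CPM are taken after TMM normalization, which sets the scale so that the bulk of genes does not move. The TMM factors were 0.953 to 0.963 without and 1.04 to 1.05 with Dox.

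As a class, the ribosomal protein mRNAs took up about the same part of the reads in both conditions. They made up 6.88%, 7.16% and 6.97% of the reads on genes in the 3 libraries without Dox and 7.06%, 6.91% and 7.05% in those with Dox. The conditions overlapped, and the means were 7.004% ± 0.142 (SD, n = 3) and 7.01% ± 0.0826 (SD, n = 3), which gave p = 1 in a two-sided exact permutation test. With 3 libraries against 3 the smallest p that this test can give is 0.1.

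After TMM normalization the sum of the class was lower with Dox. It was 71695, 75369 and 72867 CPM without Dox and 68465, 66579 and 67367 CPM with Dox, so that the conditions did not overlap. The means of 73310.3 ± 1877 and 67470.2 ± 947 CPM (SD, n = 3 each) differed by -7.97% (p = 0.1, exact permutation test, the smallest possible). The percent of reads and the TMM sum differ mainly in the TMM factors given above. The library total also differs a little, since the one used with TMM counts only the genes tested. Of the fall of the TMM sum, 67.1% lay on RPL27A and RPS27A, the 2 members with the most reads. Without these 2 members the TMM sum differed by -3.25% and the conditions overlapped (exact permutation p = 0.3). In bulk RNA, fewer cells of a kind and less RNA per cell cannot be told apart.

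The balance between the subunits leaned slightly further to the large subunit with Dox, and whether the conditions overlapped depended on how members were weighted. The log2 ratio of small-subunit to large-subunit counts, which no scaling of a library can alter, was -0.41, -0.41 and -0.34 without Dox and -0.41, -0.44 and -0.47 with Dox. The means of -0.39 ± 0.04 and -0.44 ± 0.03 (SD, n = 3 each) differed by -0.05 (exact permutation p = 0.2), and the conditions overlapped. With each member weighted equally, as the mean log2 CPM over the members of a subunit, the difference was -0.10 and the conditions did not overlap (exact permutation p = 0.1, the smallest possible).

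**Figure D1:**
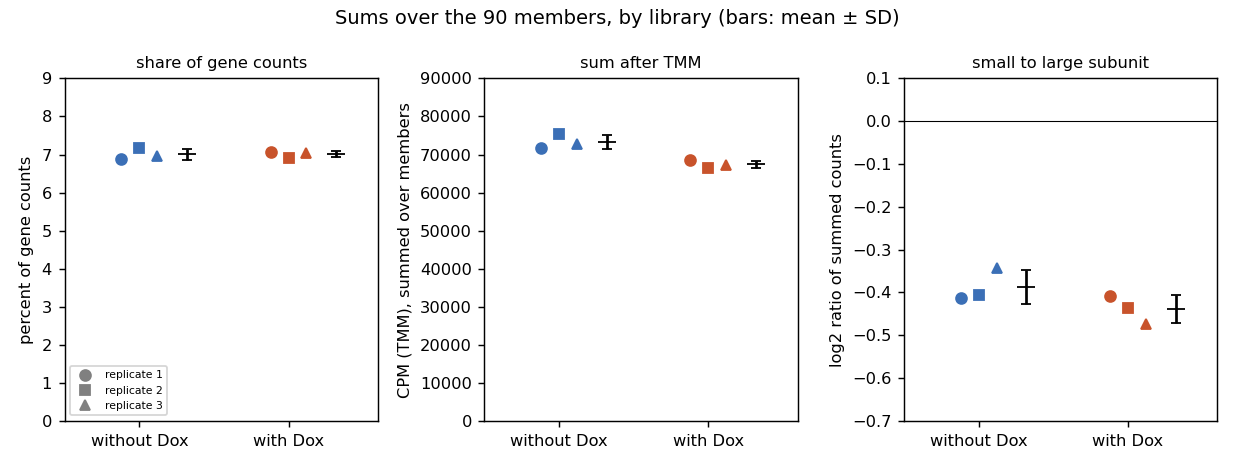
Sums over the 90 members in each library, as percent of gene counts (left), as CPM after TMM normalization (centre) and as the log2 ratio of small-subunit to large-subunit counts (right). Points are libraries and bars are mean ± SD of 3. The percent of gene counts overlaps between conditions, whereas the 3 TMM sums with Dox, 66579 to 68465 CPM, lie below the 3 without.

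Most single members moved little. Of the 90, 83 passed the filter on low counts and were tested. The 7 that were not tested were the 4 read-through and antisense rows, RPL10L, RPL3L and RPS4Y2, none with more than 4 counts in any library and 4 of them with 0 in all. RPL3L, the paralogue of RPL3 known from striated muscle, had 0 counts in each library without Dox and 0, 4 and 4 with Dox. Over the tested members the median log2 fold change, with over without Dox, was 0.01 and the middle part of the list ran from -0.21 to 0.11 (quartiles). Over all 12233 genes tested the median was 0.02 and the quartiles were -0.28 and 0.32. For 67 members the log2 fold change was below 0.3 in size, and the 95% interval of 62 lay within 1.5-fold either way and that of 80 within 2-fold.

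At an adjusted p under 0.05, 8 of the 83 members (9.64%) differed between conditions, where 25.5% of all genes tested did. RPL10 was higher with Dox (1 of 83, against 11.9% of all genes), and 7 members were lower (RPL39L, RPL23A, RPSA, RPS27A, RPS29, RPL27A and RPS20, against 13.7% of all genes). The 6 libraries did not overlap between conditions in 20 members (24.1%), 5 higher and 15 lower with Dox, where 39.5% of all genes did not overlap (19.0% higher and 20.5% lower). At an unadjusted p under 0.05 (edgeR's quasi-likelihood test) there were 4 higher and 15 lower of the 83 members. Of all 12233 genes tested, 2202 were higher and 2305 lower at that threshold. The split depended on the scale. With libraries scaled to their totals alone, which moved the median of all genes to 0.14 and that of the members to 0.13, 7 members were called higher and 4 lower, and over all genes 2179 and 1136 in place of 1451 and 1674.

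Of the small-subunit members, 32 were tested and 0 were called higher and 4 lower (12.5% in all), with a median log2 fold change of -0.05. Of the large-subunit members, 51 were tested and 1 was called higher and 3 lower (7.84%), with a median of 0.06. Over all genes tested 25.5% were called, 11.9% higher and 13.7% lower. Without the paralogues and the read-through and antisense rows, 77 members were tested, of which 1 was called higher and 6 lower (9.09%).

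**Figure D2:**
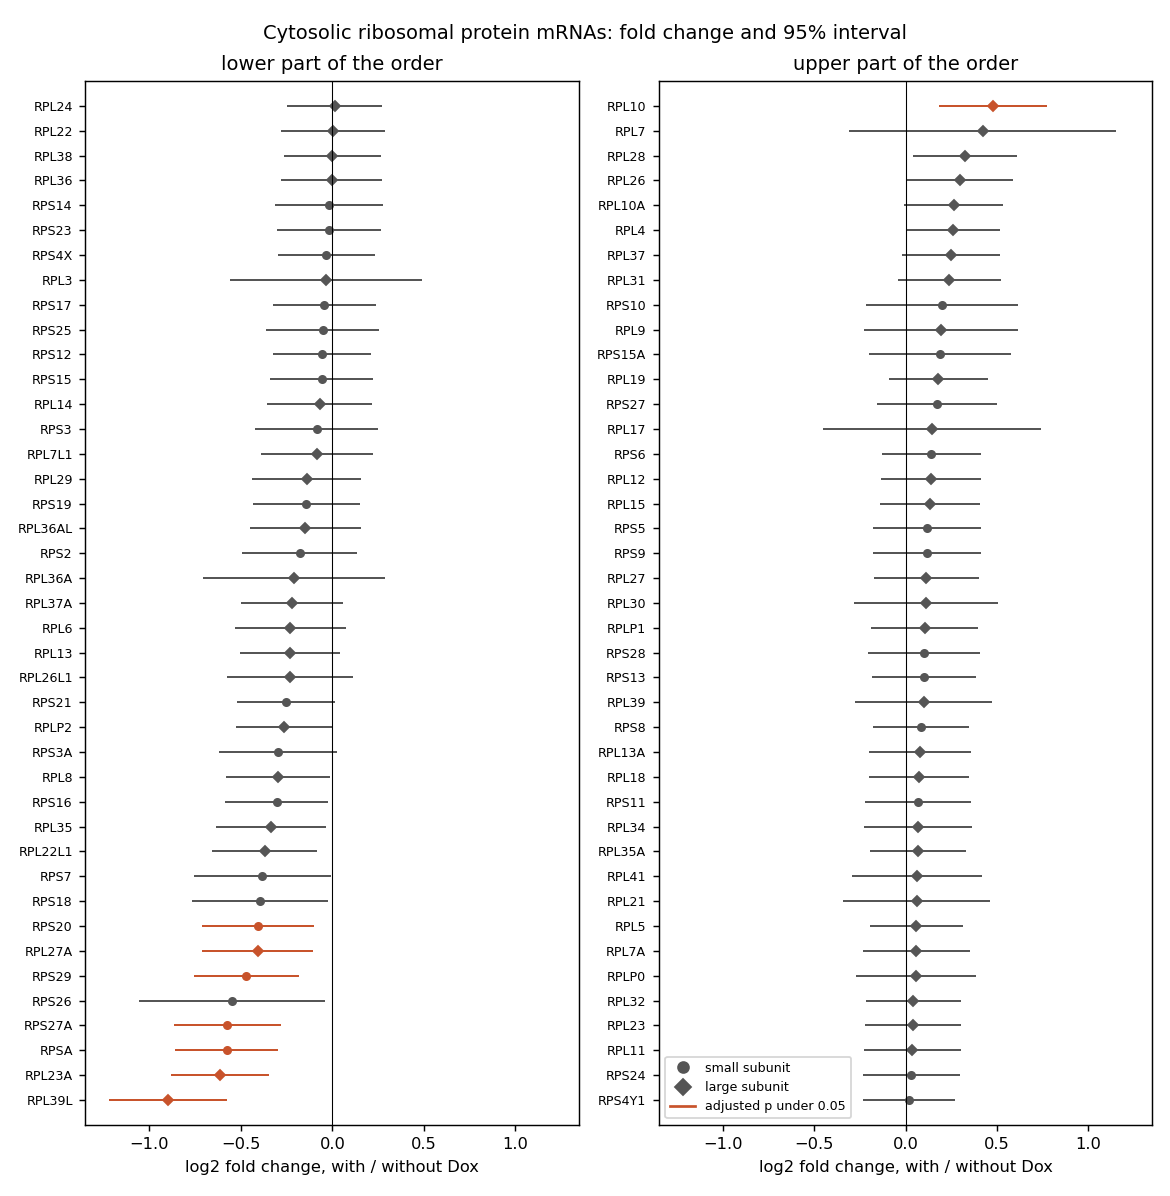
Log2 fold change, with over without Dox, of the tested members reported here with 95% intervals from edgeR, ordered by value and split over 2 panels. Circles are small-subunit and diamonds large-subunit members. The 8 members in orange have an adjusted p under 0.05, and 7 of them stand at the low end, with RPL39L lowest at -0.90.

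RPL39L fell the most. It encodes a paralogue of the small exit-tunnel protein RPL39 that is best known from the testis and is also found in cancer cells, and it lies on chromosome 3 from 187120948 to 187180908 on hg38. It was at 79.1, 83.4 and 76.1 CPM without Dox and at 38.1, 36.7 and 51.6 CPM with Dox. Every library with Dox was below every library without, and the highest of them was replicate 3. The means were 79.6 ± 3.67 and 42.1 ± 8.24 CPM (SD, n = 3 each). On the log2 scale the change was -0.90 ± 0.15 (SE; adjusted p = 2.79e-04, edgeR's quasi-likelihood test). Its sister RPL39, on chromosome X, was at 387 ± 73.6 and 413 ± 114 CPM (SD, n = 3 each), with overlapping conditions and a log2 fold change of 0.10 (95% interval -0.27 to 0.47).

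RPL23A and RPSA fell by about the same factor. RPL23A, which lies by the exit of the tunnel of the large subunit where the signal recognition particle docks, was at 339, 381 and 319 CPM without Dox and 229, 239 and 211 CPM with Dox. The conditions were well apart, and the log2 fold change was -0.61 ± 0.12 (SE; adjusted p = 0.00137, edgeR's quasi-likelihood test). RPSA, a protein of the small subunit that is also known as a laminin receptor, was at 100.04, 116 and 119.6 CPM without Dox and 82.2, 73.5 and 69.4 CPM with Dox. The conditions did not overlap, and the log2 fold change was -0.58 ± 0.13 (SE; adjusted p = 0.00344, same test). RPL23A spans 28719985 to 28724359 on chromosome 17, and RPSA 39406716 to 39426255 on chromosome 3. The start of RPSA, shown above, opens with a run of 7 pyrimidines.

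RPS27A fell among the most abundant members. It encodes a fusion of ubiquitin and a small-subunit protein, so its mRNA supplies both, and it lies on chromosome 2 from 55231903 to 55235853. Its level was 4721, 5331 and 5154 CPM without Dox and 3294, 3875 and 3039 CPM with Dox. The conditions did not overlap, with a log2 fold change of -0.57 ± 0.14 (SE; adjusted p = 0.00481, edgeR's quasi-likelihood test). Its part of all member counts was 6.91% ± 0.282 without and 5.05% ± 0.686 with Dox (SD, n = 3 each), also without overlap (exact permutation p = 0.1).

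RPS29, RPL27A and RPS20 were called lower closer to the threshold. RPS29, a small zinc-binding protein of the small subunit and one of the genes mutated in Diamond-Blackfan anaemia, was at 2395, 2397 and 2794 CPM without Dox and 2036, 1639 and 1796 CPM with Dox, a log2 fold change of -0.47 ± 0.13 (SE; adjusted p = 0.0153, edgeR's quasi-likelihood test). RPL27A, a large-subunit protein and the member with the most reads, was at 9627, 10100.3 and 7674 CPM without Dox and 6808, 7191 and 6643 CPM with Dox (log2 fold change -0.41 ± 0.14 SE, adjusted p = 0.0414, same test). Replicate 3 without Dox was much nearer to the libraries with Dox than the other two. RPS20, a protein of the head of the small subunit, was at 595, 599 and 789 CPM without Dox and 569.5, 465 and 463 CPM with Dox (log2 fold change -0.41 ± 0.14 SE, adjusted p = 0.0441, same test). In RPS20 a single library, replicate 3 without Dox, stood above the rest, and leaving it out gave a log2 fold change of -0.26 (adjusted p = 0.221, same test). The call was also lost without replicate 1 without Dox or without replicate 2 or 3 with Dox, with adjusted p of 0.0521 to 0.0981 (same test). RPL27A lost the call without replicate 1 or 2 without Dox or without replicate 1 or 3 with Dox, with adjusted p of 0.0805 to 0.158, and RPS29 lost it without replicate 3 of the Control libraries (adjusted p = 0.0547, all from edgeR's quasi-likelihood test).

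RPL10 rose. It encodes a protein near the peptidyl transferase centre that joins the large subunit late in its assembly, and it lies on chromosome X from 154389955 to 154409168. It was at 55.9, 63.3 and 62.7 CPM without Dox and 95.2, 85.4 and 73.7 CPM with Dox, from 204 to 561 reads a library. All libraries with Dox were above those without, and the log2 fold change was 0.48 ± 0.14 (SE; adjusted p = 0.0166, edgeR's quasi-likelihood test). The call was lost when replicate 1 of either condition was left out, each time with an adjusted p of 0.104 (same test). Its start, shown above, opens with a run of 12 pyrimidines.

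**Figure D3:**
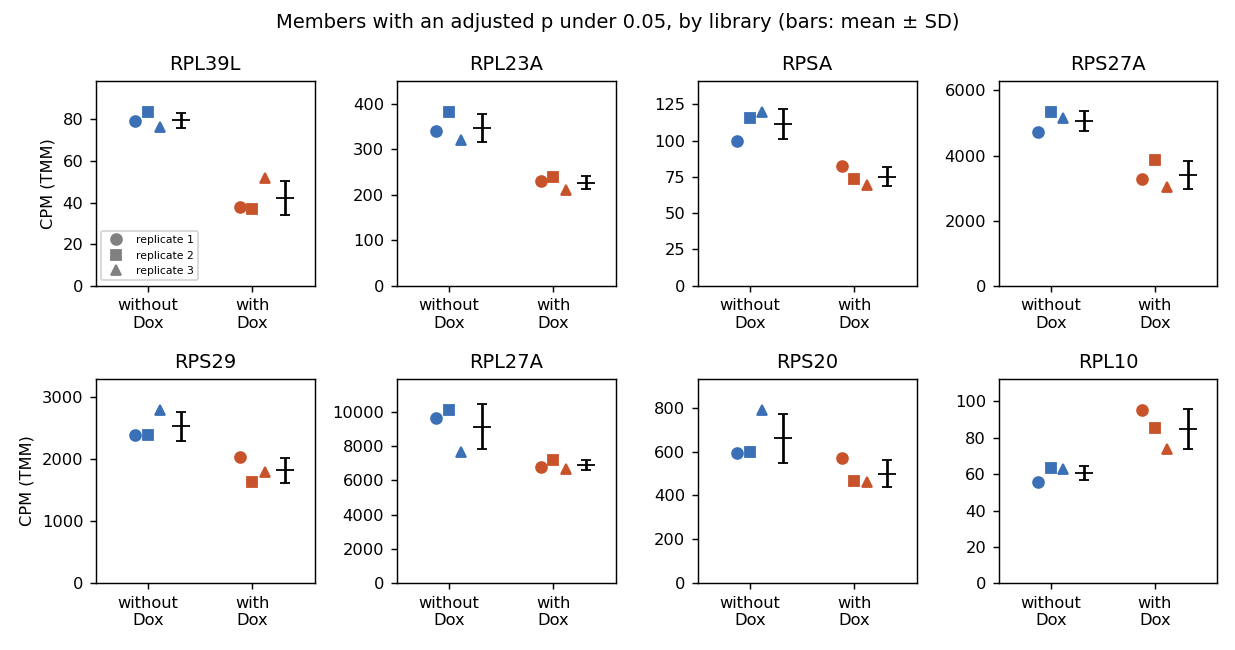
CPM after TMM normalization of the 8 members with an adjusted p under 0.05, in each library (points, shape by replicate number), with mean ± SD of 3 beside them, and with axes that start at 0. In each panel the libraries with Dox do not overlap those without, as in RPL39L with 36.7 to 51.6 against 76.1 to 83.4 CPM.

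RPS6, the substrate of the S6 kinases, was at 1689, 1859.8 and 1767 CPM without Dox and at 1987, 2085 and 1785 CPM with Dox. The conditions overlapped, and its log2 fold change was 0.14 with a 95% interval of -0.13 to 0.41 (adjusted p = 0.457, edgeR's quasi-likelihood test). The libraries do not measure its phosphorylation.

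The members of the ribosomal stalk, which recruits the GTPases of translation, did not pass the test (0 of 3, against 25.5% of all genes). RPLP0, its base, was at 549 ± 79.3 and 570.3 ± 118 CPM (SD, n = 3 each) and RPLP1 at 2339 ± 239 and 2515 ± 287 CPM, both with overlapping conditions. RPLP2 was at 2817, 2831 and 2629.8 CPM without Dox and at 2299, 2271 and 2329 CPM with Dox. Its conditions did not overlap, but with a log2 fold change of -0.26 the adjusted p was 0.130 (edgeR's quasi-likelihood test). RPLP1 and RPLP2 form dimers on the same stalk, and no test of the difference between them was made.

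RPL5 and RPL11, which join the large subunit together with 5S rRNA and bind MDM2 when free, were close to level. RPL5 was at 839, 906 and 871 CPM without Dox and 894, 920.0 and 912 CPM with Dox, and RPL11 at 624, 655 and 737 against 705, 709 and 656 CPM. Both overlapped between conditions, with log2 fold changes of 0.06 (95% interval -0.19 to 0.31) and 0.04 (95% interval -0.22 to 0.30). RPS4X, the X-linked small-subunit protein, was at 891 ± 68.7 and 872 ± 28.2 CPM (SD, n = 3 each). Of the 17 members known from Diamond-Blackfan anaemia, all tested, 0 were called higher and 1 lower (RPS29). That is 5.88%, against 25.5% of all genes, and the median log2 fold change was 0.06.

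The 5 members with the most reads held 32.3% ± 1.45 of all member counts without Dox and 27.9% ± 1.21 with Dox (SD, n = 3 each). The libraries with Dox lay at 27.3%, 29.3% and 27.2%, below the 33.2%, 33.1% and 30.6% without Dox (exact permutation p = 0.1, the smallest possible). These members were RPL27A, RPS27A, RPL37A, RPLP2 and RPLP1, with 11.3%, 5.98%, 5.74%, 3.59% and 3.46% of member counts on average. RPL37A, a zinc-binding protein of the large subunit, was at 3993, 4398 and 4684 CPM without Dox and at 3844, 3904 and 3471 CPM with Dox, without overlap, and was not called (log2 fold change -0.22, adjusted p = 0.235, edgeR's quasi-likelihood test). RPL27A alone went from 12.5% ± 1.66 to 10.2% ± 0.520 of member counts (SD, n = 3 each), with overlapping conditions. These are shares of 3ʹ reads within a library and are not molecules per cell.

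Several ribosomal proteins have a second gene, and the ratio of paralogue to partner in a library does not depend on its scaling. Of 5 pairs compared, 2 did not overlap between conditions. The log2 ratio of RPL39L to RPL39 counts was -2.55, -2.20 and -2.05 without Dox and -3.31, -3.13 and -3.39 with Dox. It was lower in each library with Dox, by 1.01 on average (exact permutation p = 0.1, the smallest possible, and 0.25 adjusted over the 5 pairs). RPL22L1, the paralogue of the RNA-binding protein RPL22, showed a smaller shift of the same direction. Its log2 ratio to RPL22 was 0.52, 0.59 and 0.61 without Dox and 0.24, 0.21 and 0.16 with Dox, a difference of -0.37 with the same exact p of 0.1.

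RPL22L1 itself was at 409, 346 and 479 CPM without Dox and 332, 299.7 and 324 CPM with Dox. The conditions did not overlap, and with a log2 fold change of -0.37 it narrowly missed the call, at an adjusted p of 0.0511 (edgeR's quasi-likelihood test). RPL22 was at 276 ± 42.3 and 277 ± 15.7 CPM (SD, n = 3 each), with a 95% interval of -0.28 to 0.28 for the log2 fold change. The start of RPL22L1 holds a pyrimidine run as that of RPL22 does.

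The other 3 pairs overlapped. The log2 ratio of RPL26L1 to RPL26 differed by -0.57 (exact permutation p = 0.2), with RPL26 at 611 ± 85.9 and 751 ± 71.6 CPM and RPL26L1 at 39.3 ± 2.76 and 33.0 ± 5.30 CPM (SD, n = 3 each). RPL26 did not overlap between conditions and was not called (log2 fold change 0.30, adjusted p = 0.121, edgeR's quasi-likelihood test). The ratio of RPL36AL to RPL36A differed by 0.06 (exact permutation p = 0.9). That of RPL7L1 to RPL7 differed by -0.53 (exact permutation p = 0.2) and rests on 9 to 34 reads of RPL7 a library, so that the depth could show only a large shift. RPL7L1 belongs to ribosome assembly factors rather than to the ribosome itself.

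**Figure D4:**
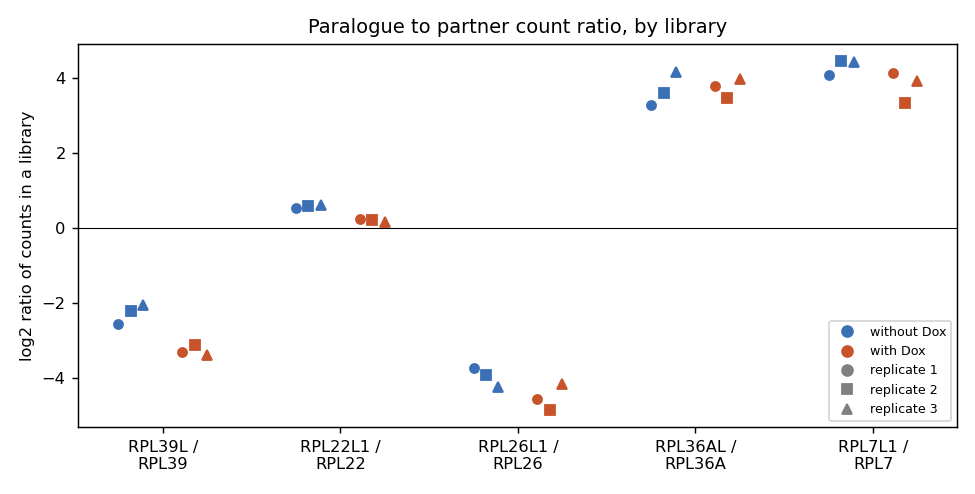
Log2 ratio of the counts of a paralogue to those of its partner in each library, for 5 pairs (points, colour by condition and shape by replicate number). The ratios RPL39L to RPL39 and RPL22L1 to RPL22 are lower in each library with Dox, and the other 3 pairs overlap.

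The start motif and the genes inside introns are features that the symbols did not use. Among the 48 tested members whose window begins with the pyrimidine run, 1 was called higher and 3 lower (8.33%), with a median log2 fold change of 0.01. Among the 19 tested with a window and no such run, 0 were called higher and 1 lower (5.26%), with a median of -0.03. That member is RPS29, one of the 3 whose RefSeq start lies farther than 2 bases from the GENCODE start, here by 12330 bases. Intronic small nucleolar RNA genes, which guide modification of ribosomal RNA, lie inside 29 members. Of the 28 of these that were tested, 1 was called higher and 4 lower (17.9%), and of the 55 tested without them 0 were called higher and 3 lower (5.45%). All these shares are below the 25.5% of all genes tested that were called, and neither difference between the groups of members was tested.

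Ribosomal protein genes have many processed pseudogenes, copies of the spliced mRNA elsewhere in the genome, and a 3ʹ read that matches gene and copy equally well may not be counted for either. GENCODE 44 names 1600 pseudogenes for the members. The last 300 bases of the main transcript were cut into stretches of 100 bases, 25 bases apart, and compared with hg38. That transcript is 4535 bases long in RPL27A and 1233 in RPL7. Whether its annotated end is the one read in these cells was not tested, so the results on copies hold for the annotated end alone. At least 1 stretch had an exact copy elsewhere in 28 of 89 members, and in RPL21 all had one. The 12 tested members with most of their stretches copied (among them RPL17, RPL9, RPL21, RPS10, RPL3, RPS27 and RPL39) had a median of 440 reads a library, from 41.8 to 1970 (RPL39). The 55 tested members with no copied stretch had a median of 3587 reads, from 18.2 (RPL7) to 36851 (RPL27A). Of the 10 members with the fewest reads, 6 were among the 12. The 3 members that share exons with a read-through row, RPL17, RPL36A and RPS10, were among the 10, with 41.8 to 197 reads. Of these, RPL17 and RPS10 are already counted in the 6. RPL7 and RPS26, also among the 10, have neither feature. Reads on shared exons count for neither gene under many counting rules, and the part of copies and shared exons in these counts was not tested.

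Of the 12 members with most stretches copied, 0 were called, against 9.64% of all tested members and 25.5% of all genes. A positive log2 fold change was found in 7 of the 12 and in 44 of the 83 tested members. Some of the 12 varied strongly within a condition. RPL3, a core protein of the large subunit, was at 187, 262 and 149 CPM without Dox and at 227, 255 and 104 CPM with Dox, a range of 1.30 on the log2 scale among the libraries with Dox, where the median range over the tested members was 0.30. Its 95% interval, -0.55 to 0.49, was accordingly wide. RPS26 is not one of the 12, since none of its stretches was copied. With 48 to 74 reads a library, RPS26 had the largest change among members that were not called (log2 fold change -0.55, adjusted p = 0.101, edgeR's quasi-likelihood test). Its 95% interval was -1.05 to -0.05, which also holds the change seen in RPSA.

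**Figure D5:**
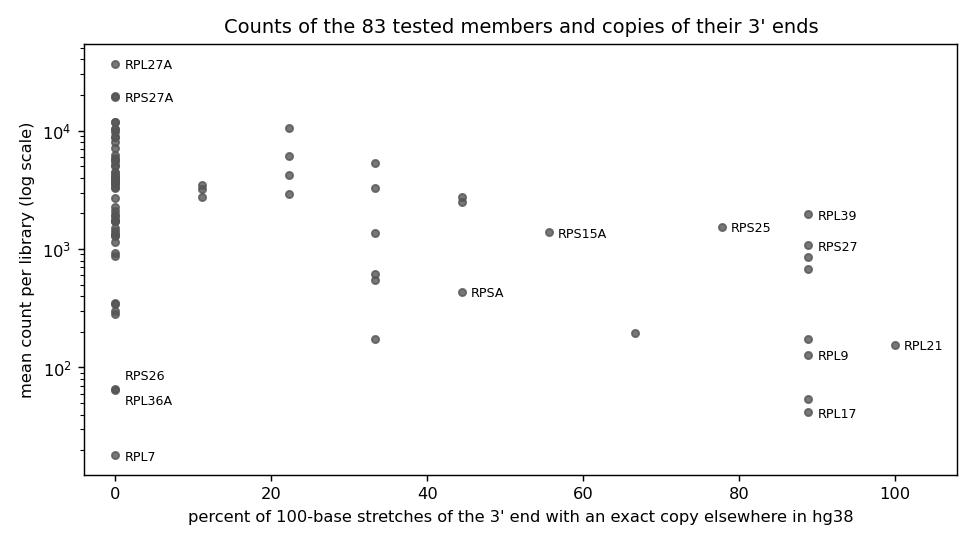
Mean count per library (log scale) of the 83 tested members against the percent of 100-base stretches of the annotated 3ʹ end that have an exact copy elsewhere in hg38. Each point is a member. RPL21, RPL9 and RPL17 lie at the right with few reads, whereas the members at 0% range from RPL7, with 18.2, to RPL27A, with 36851 reads.

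The table held 31 rows of pseudogenes named for 19 members. They carried 0.428% to 0.468% as many reads as the members without Dox and 0.447% to 0.590% with Dox. Of the 14 tested, 0 were higher and 2 lower, where 11.9% and 13.7% of all genes tested were. RPL13P5 had a log2 fold change of -1.58 (adjusted p = 9.32e-04, edgeR's quasi-likelihood test) from 17 to 55 reads a library. RPSAP58, a pseudogene named for RPSA, had one of -0.45 (adjusted p = 0.0285, same test), and reads could be split between such a copy and its parent. With pseudogene reads added to their parents, the members called were again 1 higher and 7 lower.

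Genes that act with the ribosomal proteins were examined from lists compiled by hand. FAU, which encodes a ribosomal protein fused to a ubiquitin-like protein, and RACK1, a scaffold on the small subunit, fall outside the symbol rule. Their log2 fold changes were -0.18 and 0.09, and neither was called. FAU was at 1506, 1531 and 1432 CPM without Dox and at 1403, 1191 and 1348 CPM with Dox, without overlap (adjusted p = 0.315, edgeR's quasi-likelihood test). RACK1 was at 774 ± 28.1 and 824 ± 105 CPM (SD, n = 3 each), with overlapping conditions.

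Of 16 genes of TOP mRNA and translational control, all tested, 0 were called higher and 1 lower (6.25%, against 25.5% of all genes), with a median log2 fold change of -0.08. The one called was EIF4G1, the scaffold of the cap-binding complex, at 869, 804 and 751 CPM without Dox and 666, 589 and 604 CPM with Dox (log2 fold change -0.38 ± 0.12 SE, adjusted p = 0.0304, edgeR's quasi-likelihood test). LARP1, the cap-binding repressor of TOP mRNAs, was at 254 ± 16.1 and 218 ± 16.9 CPM (SD, n = 3 each) and was not called (adjusted p = 0.211, same test). MTOR, the kinase of mTORC1, had a log2 fold change of -0.30 (adjusted p = 0.0878, same test), and EIF4EBP1, which encodes a 4E-BP, one of -0.62 at 3.62 to 11.2 CPM (adjusted p = 0.137, same test).

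Among the S6 and RSK kinases, 9 of 10 were tested and 2 were called lower (22.2%, near the 25.5% of all genes called). Both, RPS6KA5 and RPS6KA4, encode the nuclear kinases MSK1 and MSK2, which phosphorylate histone H3 and CREB. RPS6KA5 was at 36.05, 29.5 and 31.1 CPM without Dox and 22.8, 16.7 and 14.2 CPM with Dox (log2 fold change -0.86 ± 0.20 SE, adjusted p = 0.00346, edgeR's quasi-likelihood test), and RPS6KA4 had a log2 fold change of -0.49 (adjusted p = 0.0305, same test). RPS6KB1, which encodes the S6 kinase p70S6K, had a log2 fold change of -0.18 and was not called.

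Of 17 chaperones and nuclear importers of ribosomal proteins, all tested, 0 were called higher and 5 lower (29.4%, where of all genes 25.5% were called in either direction and 13.7% lower), with a median log2 fold change of -0.23 against 0.02 over all genes. RRS1, which brings RPL5, RPL11 and 5S rRNA into the growing large subunit, was at 57.2, 58.0 and 56.7 CPM without Dox and 31.7, 40.6 and 36.8 CPM with Dox. The conditions were far apart, with a log2 fold change of -0.66 ± 0.15 (SE; adjusted p = 0.00279, edgeR's quasi-likelihood test). The importins KPNB1, IPO5 and TNPO1, which carry ribosomal proteins and many other cargoes into the nucleus, had log2 fold changes of -0.61, -0.56 and -0.43 (adjusted p = 0.00204, 0.00321 and 0.0260, same test). GRWD1, the chaperone of RPL3, had one of -0.39 (adjusted p = 0.0486, same test). With libraries scaled to their totals alone, 4 of the 47 genes on all companion lists were called higher and 4 lower, against 2 and 8 on the TMM scale. Over all genes 2179 were called higher and 1136 lower with totals alone (27.1%), against 1451 and 1674 on the TMM scale (25.5%).

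Free RPL5 and RPL11 are known to inhibit MDM2, a ubiquitin ligase. CDKN1A, which encodes the cell cycle inhibitor p21, was higher with Dox, at 136, 145 and 147 CPM without and 224, 214 and 245 CPM with Dox (log2 fold change 0.68 ± 0.12 SE, adjusted p = 4.72e-04, edgeR's quasi-likelihood test). MDM2 did not overlap between conditions, with a log2 fold change of 0.27, and was not called (adjusted p = 0.102, same test). RPS27L, the paralogue of RPS27 that was kept out of the members, was at 862 ± 166 and 815 ± 89.2 CPM (SD, n = 3 each) with overlapping conditions.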

How the data were processed

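Poly(A)-primed 3ʹ libraries of 22Rv1-ABHD5 cells were compared, 3 without and 3 with Dox. STAR with hg38 was the authors' aligner and build for the single-end reads, and the main table they deposited holds raw read counts per gene symbol. HTSeq, edgeR and CASAVA 1.8.2 are also named in the submitters' processing notes, and the annotation is not given in the sources used here. The files of the single libraries, also deposited, hold a normalized signal whose scaling is not stated, which was used only as an alternative, without 27 names that could not be matched.

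Counts were tested with edgeR 4.0.16 in R 4.3.3 (TMM, filterByExpr, quasi-likelihood test, Benjamini-Hochberg adjustment over all 12233 genes tested, threshold 0.05), without a replicate block. Single values were compared by two-sided exact permutation tests. limma 3.58.1 and DESeq2 1.42.0 served as alternatives. A count of 3, equal to 0.394 to 0.930 CPM, was taken as the detection limit, which covers counting error only, since reads carry no molecular identifiers. Each pair of replicates differed by more than sampling noise (chi-square per degree of freedom 4.35 to 12.2), so none was taken as a library deposited again; this does not show that they were separate cultures. Of the members, 89 matched GENCODE 44 and 71 a RefSeq start window (GRCh38.p14). Copies of 3ʹ ends were sought with blastn 2.17.0.

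The members and all lists were chosen with earlier results of these data known. Named were the members with an adjusted p under 0.05 and a mean of at least 50 counts (up to 8 in each direction, by size of change), a set list of stalk, 5S-binding, paralogue and other well-known members, the 5 with the most reads, and the called genes of the companion lists. RPS26, RPL28, RPL35, LARP1, MTOR, EIF4EBP1, RPS6KB1, CDKN1A, MDM2 and the pseudogenes were named after their values were seen. Alternatives were other normalizations, filters, tests and units, pseudogene reads added to their parents, a block on the replicate number, and the 6 fits that omit a library. Some genes are not reported here.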

Additional observations from a re-analysis of the deposited data

How the results depend on the processing

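RPL39L, RPL23A, RPSA and RPS27A kept their direction and an adjusted p under 0.05 in all 16 alternatives. RPL10 and RPS29 each lost the call in 2 of 16, RPS20 in 8 and RPL27A in 9, and none of the 8 changed direction. The number of members called higher was 1 on the TMM scale, 7 with library totals alone, 2 with upper-quartile normalization and 0 to 1 with each library left out, with 0 without replicate 1 of either condition. The number called lower was 7, and 4 with library totals alone, 10 with no filter and 5 to 8 with each library left out. Of all genes, 25.5% were called on the TMM scale and 27.1% with library totals alone. With no filter 17.6% of all genes were called, and with each library left out 17.2% to 24.7%. The median of the members moved to 0.13 with library totals alone, where that of all genes moved to 0.14. The share of gene counts had a log2 ratio of 0.0010, against -0.12 for the TMM sum and -0.012 to 0.017 with each library left out. The changes of sign with a library left out are within the spread of the libraries. The TMM sum is on the scale of the TMM factors, which were higher with Dox. Which scale is nearer to the RNA of the cells was not tested.

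With the replicate number as a block, 2 members were called higher and 8 lower (12%), and the log2 ratio of the share was 0.0010. Over all genes 28.9% were called with the block, in place of 25.5%. The block gained RPL22L1, RPL28 and RPL35 and lost RPL27A (adjusted p = 0.0535, edgeR's quasi-likelihood test). The main test did not pair the libraries by number. Deviations from the condition means correlated across all genes with r of -0.011, 0.25 and 0.086 for replicates 1, 2 and 3. In both conditions replicate 2 had the fewest and replicate 3 the most reads on genes. These values cannot show whether the numbers pair the libraries. Across the tested members alone r was -0.15, 0.51 and 0.15, so it was higher for replicate 2. Genes with few reads, such as RPL7, could show only large changes.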
